A study of Homo sapiens with 120 samples.

Results

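The Sm proteins of the spliceosomal particles were followed across HepG2 cells exposed to 8 nanomaterials. The 9 genes SNRPB, SNRPD1, SNRPD2, SNRPD3, SNRPE, SNRPF, SNRPG, SNRPA and SNRPC were taken by name out of 20046 measured genes, and each gene's level was the log2 intensity of its brightest probe. SNRPG was chosen by its measured log2 intensities, which differed strongly between the materials L and M, so its values in those groups are given as a description without a test. No member was tested between L and M.

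HepG2 is a cell line from a human hepatocellular carcinoma. Each flask gave 1 Illumina HT-12 v4 bead array, and all but 1 of the 120 arrays could be placed in a group. The tested groups were cells kept for 72 h with 0.3, 3 or 30 µg/mL of 1 material. The cerium dioxide materials were B and M from Nano Amor and C, D and L from Alfa Aesar, and the titanium dioxide materials were A from Degussa, H from Mknano and I from Acros. Each treated group had 4 or 5 arrays. The reference was 8 arrays of untreated cells of the same line, called control here. The labels name separate biological replicates but not separate experiments, so the p-values measure the spread between these flasks. The number of arrays limits the precision.

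Small nuclear ribonucleoproteins are the RNA and protein particles that build the spliceosome, which removes introns from pre-mRNA. Their core is a ring of Sm proteins that closes around a uridine-rich site of the U1, U2, U4 and U5 RNAs, and the SMN complex loads it in the cytoplasm before the particle returns to the nucleus. SNRPB, SNRPD1, SNRPD2, SNRPD3, SNRPE, SNRPF and SNRPG encode the 7 ring proteins. SNRPA and SNRPC encode the A and C proteins of the U1 particle, which belong to it alone and are not Sm ring proteins, so the name of the set holds for the first 7.

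Facts of the whole series that touch these genes are brief. The 9 liver markers read here, among them ALB and AFP, stood at percentiles 96.9 to 99.97 of all genes by mean level. No marker was at 0, and the median of every array was 98.4 intensity units, or 6.62 on the log2 scale. The main axis of variation between arrays (38.1% of the total) set 9 arrays apart from the other 110. They were neighbours in the order of deposit, from position 59 to position 67, and no label names a chip. They lay in 7 treated groups, with 2 arrays each in H and M at 30 µg/mL and 1 each in A at 30, L at 30, I at 3, I at 0.3 and L at 0.3 µg/mL, and in no control. Calls of members against control in those groups are given with and without them. In cultures measured in bulk, fewer cells that hold an mRNA and less of it per cell cannot be told apart.

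The 4 members whose level changed against control at 30 µg/mL in L or M are SNRPA, SNRPF, SNRPD2 and SNRPD3. To show what lies before their starts, the 250 bases upstream of each gene are printed 5′ to 3′ as RefSeq gives them on GRCh38.p14, with matches to CCGGAAG (the core bound by ETS factors) and to CCAAT (the NF-Y box) on either strand in capitals. The windows are chr19:40750953-40751202 on the plus strand for SNRPA, chr12:95858702-95858951 on the plus strand for SNRPF, chr19:45692317-45692566 on the minus strand for SNRPD2 and chr22:24555400-24555649 on the plus strand for SNRPD3.
SNRPA: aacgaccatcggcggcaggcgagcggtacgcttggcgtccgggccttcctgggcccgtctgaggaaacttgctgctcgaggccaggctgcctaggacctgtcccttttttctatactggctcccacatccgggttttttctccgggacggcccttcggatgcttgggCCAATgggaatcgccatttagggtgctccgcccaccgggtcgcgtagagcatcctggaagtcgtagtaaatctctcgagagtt
SNRPF: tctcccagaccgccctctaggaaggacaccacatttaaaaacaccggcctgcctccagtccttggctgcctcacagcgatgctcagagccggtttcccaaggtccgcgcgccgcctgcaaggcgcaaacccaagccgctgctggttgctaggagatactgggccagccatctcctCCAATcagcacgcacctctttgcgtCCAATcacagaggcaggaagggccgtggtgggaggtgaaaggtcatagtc
SNRPD2: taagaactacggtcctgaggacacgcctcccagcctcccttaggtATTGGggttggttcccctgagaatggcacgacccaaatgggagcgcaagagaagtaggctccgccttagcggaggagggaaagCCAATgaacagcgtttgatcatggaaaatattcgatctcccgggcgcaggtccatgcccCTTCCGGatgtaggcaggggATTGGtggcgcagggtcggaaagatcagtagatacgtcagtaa
SNRPD3: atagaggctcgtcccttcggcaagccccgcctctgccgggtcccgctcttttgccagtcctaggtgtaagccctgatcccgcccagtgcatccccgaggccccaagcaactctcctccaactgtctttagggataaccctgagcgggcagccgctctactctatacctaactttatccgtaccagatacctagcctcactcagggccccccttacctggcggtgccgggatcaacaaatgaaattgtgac
SNRPD2 held 1 CCGGAAG match and 3 CCAAT matches. SNRPF held 2 CCAAT matches and SNRPA held 1, while SNRPD3 held neither motif. RefSeq windows that lie wholly before the gene were at hand for 6 members, these 4 with SNRPB and SNRPC. CCAAT was in 3 of the 6, against 33.37% of 24885 genes with such a window, and CCGGAAG was in 3 of the 6, against 8.81%. CACGTG was in 0 of the 6, against 6.44%, and TATAAA was in 1, against 11.41%. Matches of CCAAT and CCGGAAG cannot overlap each other, CCGGAAG can overlap its own reverse complement, as in SNRPC, and a match is letters in a window and not a bound site.

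SNRPG, a small Sm protein that sits between SNRPD3 and SNRPE in the ring, was lower in M and slightly higher in L than in control at 30 µg/mL in the mean. In L at 30 µg/mL its 5 arrays read 12.74, 12.84, 12.89, 12.79 and 12.70 log2 units, and in M at 30 µg/mL they read 11.64, 11.37, 11.54, 11.49 and 11.53. Control arrays ran between 11.67 and 12.83 with a median of 12.54. All L arrays thus lay above all M arrays, and every M array lay below every control array, though the lowest control, at 11.67, came close to the highest M array, at 11.64. The L arrays overlapped the controls. Control replicate 5, at 12.83, lay above the L arrays at 12.74, 12.79 and 12.70.

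On the linear scale SNRPG averaged 7092 intensity units in L at 30 µg/mL, 2927 in M at 30 µg/mL and 5653 in control (geometric means). The mean difference of L over M was 1.28 on the log2 scale, or 2.42-fold, and 1.29 without the 9 arrays. Against control the fitted change was -0.95 ± 0.11 in M and 0.33 ± 0.11 in L (SE, n = 5 against 8). These differences chose the gene and carry no test.

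The difference between L and M was not the same size at each dose. SNRPG averaged 12.78 ± 0.28 in L and 11.92 ± 0.34 in M at 0.3 µg/mL (SD, n = 4 each), and the ranges did not overlap. At 3 µg/mL it averaged 12.64 ± 0.12 in L (SD, n = 5) and 12.17 ± 0.51 in M (SD, n = 4), and the ranges overlapped. The 4 M arrays at 3 µg/mL read 12.46, 12.71, 11.90 and 11.60, so the first 2 lay within the range of the 7 higher controls and the last 2 below it. At 0.3 µg/mL the M arrays read 12.38, 11.91, 11.80 and 11.58. The mean in M was therefore lower at 0.3 than at 3 µg/mL and lowest at 30 µg/mL, while the arrays of M spread more widely at both low doses than at 30 µg/mL.

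**Figure D1:**
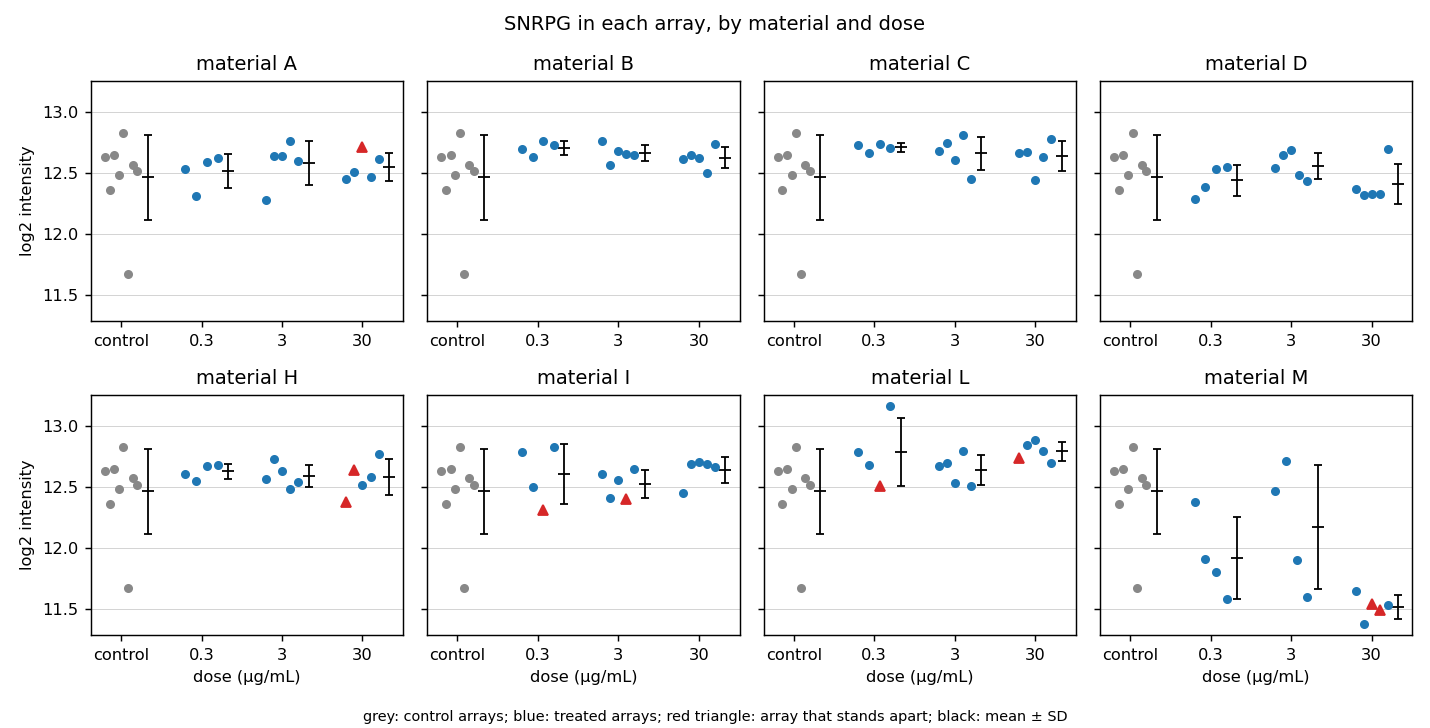
SNRPG in every array (vertical axis, log2 intensity), with 1 panel per material and control, 0.3, 3 and 30 µg/mL on the horizontal axis. Points are arrays, red triangles are arrays that stand apart, and black bars are mean ± SD; the 5 M arrays at 30 µg/mL sit between 11.37 and 11.64, and control replicate 6 sits alone at 11.67.

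Outside L and M, SNRPG stayed close to control. It was tested in 18 groups of A, B, C, D, H and I and passed in 0 of them by limma (Benjamini-Hochberg adjusted p of 0.446 or more), with changes between -0.05 and 0.25. In A it averaged 12.52 ± 0.14, 12.59 ± 0.18 and 12.55 ± 0.11 at 0.3, 3 and 30 µg/mL (SD). The same 3 doses gave 12.71 ± 0.06, 12.67 ± 0.07 and 12.63 ± 0.09 in B. For C they gave 12.71 ± 0.03, 12.66 ± 0.14 and 12.64 ± 0.12. D lay lower, at 12.44 ± 0.13, 12.56 ± 0.11 and 12.41 ± 0.16. H gave 12.63 ± 0.06, 12.59 ± 0.09 and 12.58 ± 0.15, and I gave 12.61 ± 0.24, 12.52 ± 0.11 and 12.64 ± 0.11. Groups held 4 arrays at 0.3 µg/mL and 5 at the other doses, and control averaged 12.46 ± 0.35 (SD, n = 8).

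In the order of the 25 group means, L at 30 µg/mL was first, L at 0.3 µg/mL second, L at 3 µg/mL 9th and control 20th. M at 3, 0.3 and 30 µg/mL held the last places. The gap between neighbours in that order exceeded the larger SD of the pair once, between M at 0.3 and M at 30 µg/mL, where it was 0.40. All other neighbours differed by less than that spread. Replicate 6 widened the SD of control and lowered its mean, as it read 11.67 while the other 7 controls read 12.36 to 12.83.

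The genes with the profile most like that of SNRPG over the 25 group means were TMEM14C (r = 0.86), DMAC1 (0.86), COXFA4 (0.85), COX7B (0.85) and NDUFA2 (0.85), among 10022 genes above the median level. TMEM14C is a mitochondrial inner membrane protein of heme synthesis, DMAC1 an assembly factor of respiratory complex I, COXFA4 and COX7B proteins of cytochrome c oxidase, and NDUFA2 a subunit of complex I. The points share arrays and the scale of deposit, and the ranking picked these genes, so r is a description. Without the 9 arrays r was 0.95 for COXFA4 and between 0.82 and 0.88 for the other 4.

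COX7B averaged 7.65 ± 0.31 in M at 30 µg/mL (SD, n = 5) and 9.21 ± 0.54 in control (SD, n = 8). COXFA4 averaged 10.07 ± 0.58 in M at 30 µg/mL and 11.54 ± 0.31 in control. In both genes the control mean lay above the mean of M by more than either SD. TMEM14C averaged 10.68 ± 0.12 in M at 30 µg/mL and 11.38 ± 0.20 in control (SD). DMAC1 averaged 7.17 ± 0.29 and 8.07 ± 0.30 in the same groups, and NDUFA2 9.635 ± 0.41 and 10.28 ± 0.16. These gaps were smaller on the log2 scale but also exceeded either SD. All were picked for a profile like that of SNRPG, which is low in M. Their low means in M thus follow from the choice and are no separate result. In control replicate 6, where SNRPG was low, all 5 genes were also below their control means, with COX7B at 8.45 and DMAC1 at 7.52.

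SNRPG's neighbours in the family did not follow it as a block. Over the 25 group means the 36 pairs of members had correlations between -0.51 and 0.88 with a median of -0.05. SNRPG went most closely with SNRPD2, at r = 0.72 (0.80 without the 9 arrays), and r was 0.37 over the deviations of single arrays from their group means. SNRPB and SNRPC had the highest value, at 0.88, and SNRPD3 and SNRPA the lowest, at -0.51. These correlations describe points that share arrays, and those with SNRPG include the L and M groups that chose it. SNRPD2 averaged 11.57, 11.65 and 11.55 in M at 0.3, 3 and 30 µg/mL, against 11.88 in control. Its r with SNRPG thus draws on groups that chose SNRPG and is no separate result. SNRPE, whose levels lay at the array median, enters some of the pairs.

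At 30 µg/mL in M, 3 of 8 tested members passed limma's test against control, against 17.4% of all 20046 genes in that comparison. SNRPA and SNRPF rose and SNRPD2 fell. The other 5 tested members, SNRPB, SNRPC, SNRPD1, SNRPD3 and SNRPE, did not pass, with changes between -0.28 and 0.26. Over all genes 2105 were higher and 1378 lower, and the median change of all genes was 0.01. In a fit of M and control arrays alone SNRPA still passed (adjusted p 0.00496), while SNRPF (0.0567) and SNRPD2 (0.122) did not.

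SNRPA, the A protein of the U1 particle that binds a stem-loop of U1 RNA and also controls the polyadenylation of its own mRNA, read 8.50, 8.59, 8.60, 8.41 and 8.42 in the M arrays at 30 µg/mL. Control arrays ran between 7.497 and 8.16 with a median of 7.80. All M arrays were above all control arrays. The change was 0.67 ± 0.13 (SE), or 1.59-fold, with an adjusted p of 3.242e-05 by limma, and 0.67 without the 9 arrays (adjusted p 0.00155).

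SNRPA in M was high at 3 and 30 µg/mL and near control at 0.3 µg/mL. It averaged 7.83 ± 0.21 in control (SD, n = 8), 7.90 ± 0.21 at 0.3 µg/mL (n = 4), 8.48 ± 0.14 at 3 µg/mL (n = 4) and 8.50 ± 0.09 at 30 µg/mL (n = 5). The 0.3 µg/mL arrays overlapped the controls, and the arrays at 3 and 30 µg/mL overlapped each other and lay above every control. Against 0.3 µg/mL, M at 30 µg/mL was higher by 0.61 ± 0.15 (SE, adjusted p 0.00509 by limma). That call was lost when replicate 4 of every treated group was left out (0.57, adjusted p 0.0768) and in a fit of those 2 groups alone (0.126).

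SNRPF, a ring protein that joins SNRPE and SNRPG before assembly, read 11.80, 11.56, 11.71, 11.57 and 11.74 in M at 30 µg/mL. Control arrays ran between 11.21 and 11.69 with a median of 11.40. The arrays of M were in the upper part of the control range or above it, and the groups overlapped. The change was 0.27 ± 0.07 (SE), or 1.20-fold (adjusted p 0.00506 by limma), and 0.29 without the 9 arrays (0.0113). The second probe of SNRPF gave -0.13 ± 0.12 (SE) in the same comparison (adjusted p 0.608 over all probes), and 0.19 without the 9 arrays (0.261), so the rise rests on 1 of 2 probes.

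SNRPD2, the ring protein that pairs with SNRPD1 to start the ring, read 11.28, 11.53, 11.41, 11.999 and 11.51 in M at 30 µg/mL. Control arrays ran between 11.59 and 12.07 with a median of 11.95. In M, 4 of 5 arrays were below every control, and the exception, replicate 4 at 11.999, is one of the 9 arrays that stand apart. The change was -0.33 ± 0.08 (SE; adjusted p 0.000896 by limma), and -0.44 without the 9 arrays (1.501e-05). The mean was 11.57 ± 0.06 at 0.3 µg/mL and 11.65 ± 0.21 at 3 µg/mL in M (SD, n = 4 each), and those comparisons with control did not pass (adjusted p 0.409 and 0.244). Without the 9 arrays, which held none of these 8, they passed (0.0374 and 0.0427).

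Markers of other cell types were compared beside these changes. The summed intensity of the 6 measured fibroblast markers of 6 listed was 708 to 968 in M at 30 µg/mL and 599 to 651 in control, and 708 to 719 in the 3 M arrays that do not stand apart. It was 700 to 710 in L at 0.3 µg/mL. COL1A1 and PDGFRB varied most, with group means of 6.64 to 7.76 and 6.90 to 7.44, while COL1A2, COL3A1, DCN and LUM stayed near the array median. The 4 measured leukocyte markers summed to 624 to 754 in M at 30 µg/mL and 584 to 722 in control, and the 4 endothelial markers to 356 to 391 in M and 362 to 388 in control. The part of these markers in the member results was not tested.

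At 30 µg/mL in L, 1 of 8 tested members passed against control, against 6.9% of all genes. SNRPD3, the ring protein that pairs with SNRPB, fell. Its L arrays read 6.66, 7.02, 7.18, 6.99 and 7.60, and control arrays ran between 7.28 and 7.80 with a median of 7.56. The lowest reading, 6.66 in replicate 1 of L, lay near the array median of 6.62, which limits how the size of the fall can be read. In L, 4 of 5 arrays were below every control and replicate 5 lay among them. The change was -0.46 ± 0.12 (SE), a level 1.37-fold lower, with an adjusted p of 0.00797 by limma. It was -0.35 without the 9 arrays (0.0455), and the call was lost when replicate 1 of L alone was left out, where the change was also -0.35. A fit of L and control arrays alone also ended the call (adjusted p 0.148), and so did the replicate number as a block (-0.34, adjusted p 0.131).

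SNRPD3 was lowest in L at 0.3 µg/mL. Its 4 arrays there read 7.12, 6.93, 6.73 and 6.87, all below every control. The change was -0.64 ± 0.13 (SE, adjusted p 0.00014 by limma), and -0.57 without the 9 arrays (0.0003645). The lowest of these arrays, at 6.73, also lay near the array median of 6.62. At 3 µg/mL it averaged 7.20 ± 0.35 (SD, n = 5) with 1 array at 7.81, and the change of -0.35 did not pass (adjusted p 0.0855; 0.0207 without the 9 arrays). The level in L was thus below control at each dose in the mean, and the highest dose did not have the lowest mean.

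SNRPA also stood high in L at 0.3 µg/mL, where its arrays read 8.63, 8.58, 8.39 and 8.53, above every control. The change was 0.70 ± 0.13 (SE, adjusted p 6.171e-05 by limma), and 0.75 without the 9 arrays (0.000132). In L it averaged 8.53 ± 0.10, 8.21 ± 0.28 and 8.05 ± 0.25 at 0.3, 3 and 30 µg/mL (SD, n = 4, 5 and 5), and the changes at 3 and 30 µg/mL did not pass (adjusted p 0.0652 and 0.382). The order of means over dose in L, highest at 0.3 µg/mL, was the opposite of that in M, highest at 30 µg/mL. The difference between these courses was not tested, as no member was compared between L and M.

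**Figure D2:**
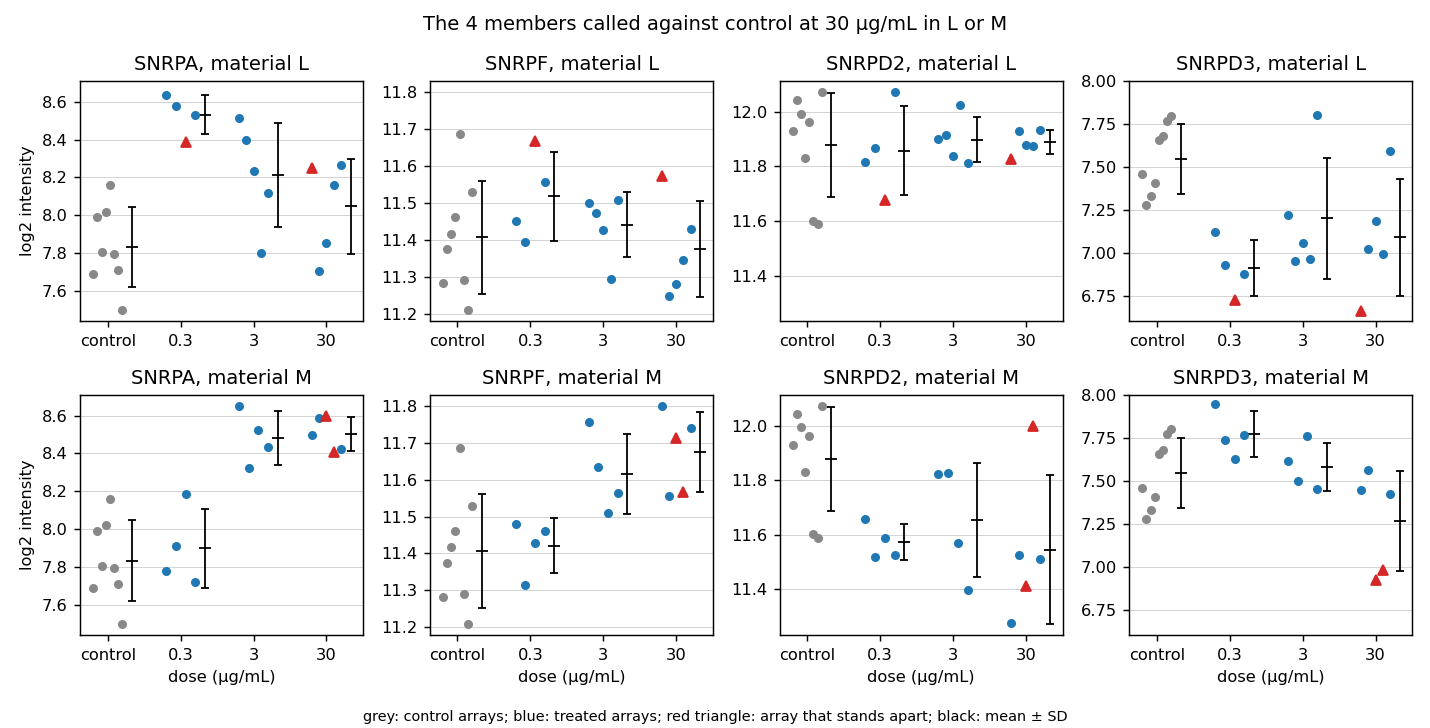
SNRPA, SNRPF, SNRPD2 and SNRPD3 in every control, L (top row) and M (bottom row) array, as log2 intensity against dose in µg/mL, with arrays that stand apart as red triangles and black bars for mean ± SD. All 5 M arrays of SNRPA at 30 µg/mL and all 4 L arrays at 0.3 µg/mL lie above every control, and SNRPD3 is lowest in L at 0.3 µg/mL.

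Over the 8 materials, 2 of 70 tests of members against control passed at 0.3 µg/mL, against 2.25% of all tests of genes at that dose. Both were in L, the SNRPA and SNRPD3 changes above, and L at 0.3 µg/mL called 1698 genes higher and 748 lower. With the 9 arrays left out 3 of 70 passed at 0.3 µg/mL, SNRPD2 in M being added, against 2.95% of all gene tests. At 3 µg/mL 1 of 70 passed, against 2.31%, and it was SNRPA in M (0.65 ± 0.13, SE, adjusted p 0.003 by limma), where 115 genes were higher and 77 lower. That call was lost when replicate 1 of every treated group was left out (0.59, adjusted p 0.052) and with the replicate number as a block (0.56, 0.0538). Without the 9 arrays 6 passed at 3 µg/mL: SNRPA and SNRPD2 in M, SNRPA, SNRPB and SNRPD3 in L, and SNRPD3 in H. The share of all gene tests at 3 µg/mL was then 4.94%. SNRPG in L and M is counted in none of these.

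For the other 6 materials at 30 µg/mL, 0 of 9 members passed in A, B, C, D, H or I. The share of all genes that passed was 8.51% in A, 0.743% in B, 0.0649% in C, 0.015% in D, 9.46% in H and 3.92% in I. Over their 18 groups at all doses the lowest adjusted p by limma was 0.0532, for SNRPF. The calls of members against control therefore lay in the groups of L and M in this fit.

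**Figure D3:**
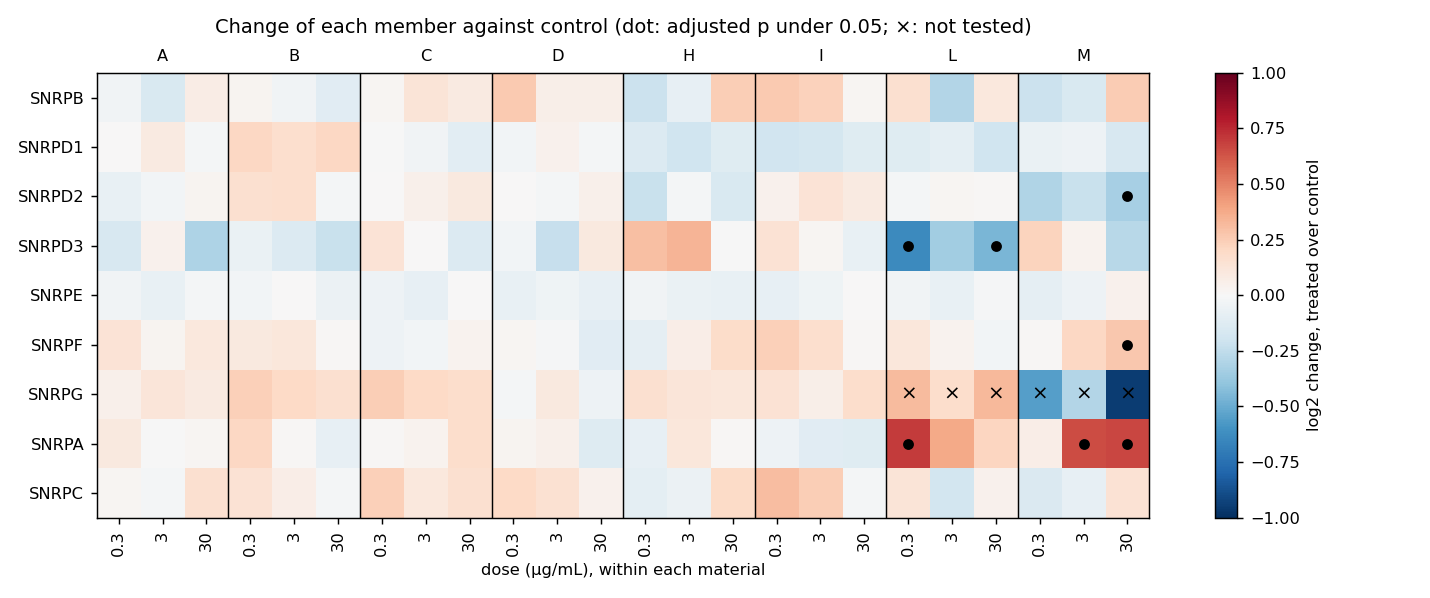
Fitted log2 change of each member (rows) against control in each of 24 groups (columns, by material and dose in µg/mL), from blue (lower) to red (higher). Dots mark an adjusted p under 0.05 and crosses mark SNRPG in L and M, which was not tested; the dots lie in the L and M columns.

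Within materials, 3 of 70 tests of members at 30 against 0.3 µg/mL passed, against 1.96% of all gene tests. Besides SNRPA in M, SNRPF was higher in H by 0.28 ± 0.09 (SE, adjusted p 0.0308 by limma), and SNRPD3 was lower in M, with a change of -0.50 ± 0.14 (SE, adjusted p 0.0147). Both lost the call without the 9 arrays, where they were 0.19 (0.234) and -0.29 (0.36), and the share of all gene tests was 0.919%. Each also lost it in 5 of 10 fits without 1 array or 1 replicate number, and in a fit of the 2 doses alone (0.113 and 0.325). The 2 arrays of H and the 2 of M that stand apart at 30 µg/mL were among the compared arrays. SNRPD3 read 6.92 and 6.98 on those M arrays and 7.43 to 7.56 on the other 3.

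SNRPD1, partner of SNRPD2 in the ring, differed in mean among A, B, C, D, H and I at 30 µg/mL. It averaged 8.11 ± 0.11 in B, 7.89 ± 0.08 in A, 7.88 ± 0.08 in D, 7.80 ± 0.21 in C, 7.78 ± 0.16 in H and 7.78 ± 0.16 in I (SD, n = 5 each), against 7.91 ± 0.16 in control (n = 8). B was highest, and its arrays, 7.94 to 8.23, overlapped those of each of the other 5 materials, whose highest arrays read 7.98 in A, 7.96 in D, 8.08 in C, 7.97 in H and 8.001 in I. The moderated F was 5.11 with an adjusted p of 0.00304 by limma, and SNRPD1 was the 1 of 9 members that passed this test, against 25.1% of all genes. Without the 9 arrays SNRPB passed too (F 3.85, adjusted p 0.0134), where 33.3% of all genes passed. SNRPD1 passed in none of the 24 comparisons with control (lowest adjusted p 0.0699, in L at 30 µg/mL, change -0.20).

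Cerium dioxide against titanium dioxide, with the means of 5 and 3 materials at 30 µg/mL as the replicates, passed for 0 of 8 tested members, against 0% of all genes by limma. Over all genes 1371 had an unadjusted p under 0.05 in that comparison. The member changes of cerium over titanium dioxide ran between -0.07 for SNRPD3 and 0.20 for SNRPA, and SNRPA's SE was 0.18. L and M are both cerium dioxide. Their SNRPG means at 30 µg/mL lay at opposite ends of the order, but that difference chose the gene and is no separate result.

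SNRPB and SNRPC carried the largest differences tied to arrays and not to groups. SNRPB, whose products B and B′ are the largest ring proteins, was higher on all 9 arrays that stand apart than on the others of their groups, by 0.98 to 1.40. SNRPC, the C protein of U1 that steadies the pairing of U1 RNA with the donor splice site, was higher on all 9 by 0.58 to 1.12. In M at 30 µg/mL SNRPB read 13.14 and 13.04 on those arrays and 11.93 to 12.08 on the other 3. The fitted change of SNRPB in M was 0.26 with these arrays and -0.19 without them, and neither passed (adjusted p 0.403 and 0.289).

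The second probe of SNRPC went the other way on those arrays, with a median 1.11 lower than on the rest, while the brighter probe's median was 0.68 higher. Over the group means the 2 probes correlated at -0.49, and at 0.01 without the 9 arrays. The dimmer probe passed against control in H at 30 µg/mL (-0.77, adjusted p 0.00344 over all probes) and in M (-0.55, 0.0362), where 5.38% and 9.58% of all probes passed. With the 9 arrays left out it was -0.43 in H and still passed (0.0432), was -0.39 in I and passed there too (0.00946, against 0.306 with all arrays), and was 0.03 in M (0.957). The share of all probes was then 2.07% in H, 6.77% in I (2.98% with all arrays) and 4.39% in M. SNRPF's probes disagreed there too, with medians 0.24 higher and 0.56 lower, and their correlation over group means was 0.33 (0.83 without the 9 arrays). SNRPB's 2 probes both had higher medians on those arrays, by 1.07 and 0.37. Values of SNRPC thus depended on the probe, and not only in groups with such an array. In I at 30 µg/mL, which held none of them, the brighter probe changed by -0.02 and the dimmer by -0.39.

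**Figure D4:**
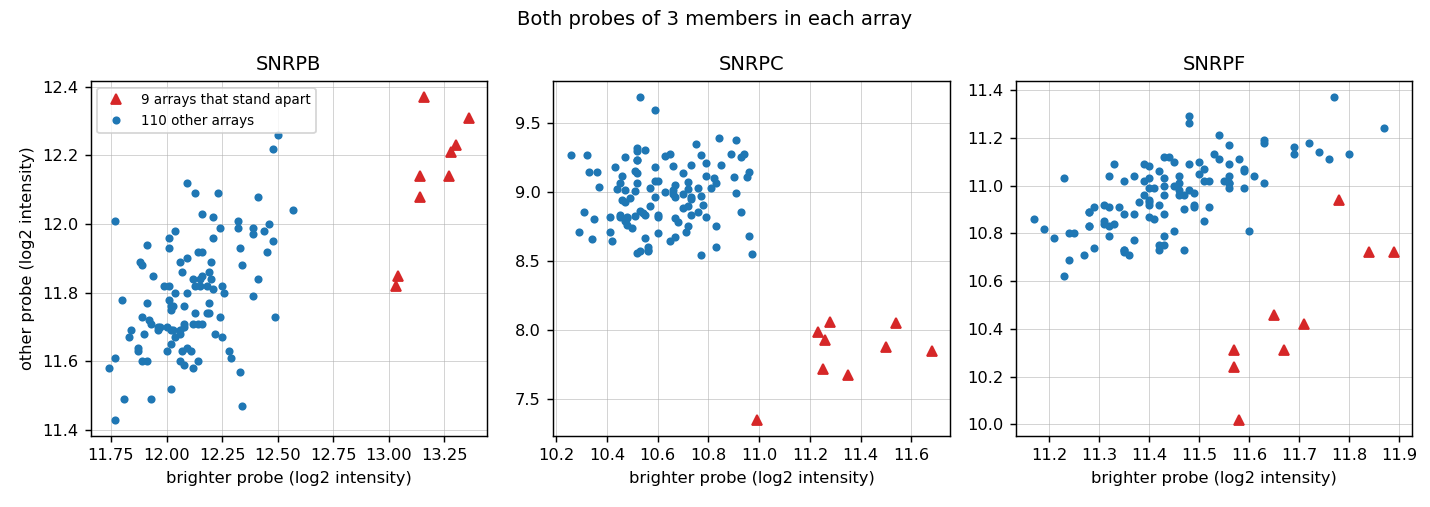
The brighter probe (horizontal) against the other probe (vertical), both in log2 intensity, for SNRPB, SNRPC and SNRPF in each array. Red triangles are the 9 arrays that stand apart; for SNRPC they lie right of and below the other 110, between 10.99 and 11.68 on the brighter probe and 7.35 and 8.06 on the other.

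SNRPE, the ring protein between SNRPF and SNRPG, gave no usable level. Its control mean of 6.59 and its group means of 6.50 to 6.63 lay at the array median, as did its second probe, and none of 24 comparisons passed (lowest adjusted p 0.339). The values do not show whether its mRNA changed. The second probe of SNRPD2 lay at the same level, with a mean of 6.57.

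Among the 8 members other than SNRPG, group means spanned most in SNRPD3, by 0.97, then in SNRPA by 0.83, and least in SNRPE, by 0.13. The median SD within groups was 0.16, 0.19 and 0.06 for the same 3 genes. In SNRPG the group means spanned 1.28 with a median SD of 0.12, but the ends of that span, L and M at 30 µg/mL, are the groups that chose it, so it is not ranked with the others. The ends were H at 3 and L at 0.3 µg/mL for SNRPD3, and L at 0.3 and D at 30 µg/mL for SNRPA.

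For the other 8 members the most similar profiles over the 25 group means belonged to C19orf53 for SNRPB (r = 0.90), DDX59 for SNRPD1 (0.90), MRPL22 for SNRPD2 (0.80), OPA3 for SNRPD3 (0.91), RNF112 for SNRPE (0.73), PALD1 for SNRPF (0.76), CTSV for SNRPA (0.94) and SPAG7 for SNRPC (0.89). MRPL22 is a protein of the mitochondrial ribosome, DDX59 an RNA helicase, OPA3 a mitochondrial membrane protein and CTSV a lysosomal protease. Without the 9 arrays r was 0.56 for PALD1, 0.61 for RNF112 and between 0.83 and 0.96 for the others. RNF112 averaged 6.76 in control, near the array median like SNRPE. The ranking picked these genes, so r is a description here too.

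The rest of the spliceosome was read from 70 other genes of the LSm ring, Sm assembly, U1, U2, U4/U6 and U5 and the minor spliceosome. In M at 30 µg/mL 6 of the 70 rose and 14 fell, against 17.4% of all genes that passed in either direction, and the median change was -0.02 against 0.01 over all genes. The counts were 2 and 10 without the 9 arrays, against 8.09% of all genes. LSM7, of the LSm ring that holds the end of U6 RNA, fell by 0.63 ± 0.08 (SE, adjusted p 2.113e-08 by limma) and LSM1, of the ring that acts in mRNA decay, fell by 0.34 ± 0.08 (0.00137). In all 4 of the 14 LSm genes fell and 0 rose, beside the 17.4% of all genes. Without the 9 arrays 2 fell and 0 rose, beside 8.09%.

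Of the 12 U2 genes 1 rose and 5 fell in M, where the share of all genes was 17.4% as above. Without the 9 arrays 1 rose and 3 fell, beside 8.09%. SF3B6, the protein that touches the branch point adenosine, fell by 0.73 ± 0.15 (SE, adjusted p 0.000229 by limma) and SF3B3 fell by 0.48 ± 0.12 (0.00134), while SF3B4 rose by 0.58 ± 0.12 (0.000187). Of the 18 U4/U6 and U5 genes 4 rose and 3 fell, beside 17.4%, and 1 rose and 2 fell without the 9 arrays, beside 8.09%. CD2BP2, a binding partner of the U5 particle, rose by 0.80 ± 0.12 (1.323e-07), and the helicase SNRNP200 fell by 0.38 ± 0.08 (0.000492). TXNL4A rose by 0.18 ± 0.06 (0.0172) and PRPF4 fell by 0.32 ± 0.07 (0.000253), and without the 9 arrays neither passed (0.508 and 0.21), nor did LSM1 (0.184). TXNL4A averaged 6.79 in control, near the array median of 6.62, which limits how its rise can be read.

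In L at 30 µg/mL 5 of the 70 rose and 1 fell, against 6.9% of all genes, and 5 rose and 2 fell without the 9 arrays, against 6.63%. All 5 risers with all arrays were among the U4/U6 and U5 genes, led by PRPF3 (0.45 ± 0.09, SE, adjusted p 0.000344 by limma), a U4/U6 protein, and PRPF8 (0.80 ± 0.18, 0.00192), the scaffold at the catalytic centre. Without the 9 arrays PRPF3 was 0.45 (0.000702) and PRPF8 was 0.52 (0.003855). In A 5 rose and 3 fell, against 8.51% of all genes, and 8 rose and 4 fell without the 9 arrays, against 9.69%, with PRPF3 (0.53 ± 0.09, adjusted p 9.957e-06) and EFTUD2 (0.51 ± 0.10, 0.000157), the U5 GTPase, among the risers. In I 5 rose and 2 fell, against 3.92% of all genes, with SNRNP200 (0.45 ± 0.08, 0.00039) and EFTUD2 (0.45 ± 0.10, 0.00254) among the risers, and 8 rose and 4 fell without the 9 arrays, against 10.2%.

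In H 8 rose and 5 fell, against 9.46% of all genes, and 5 rose and 4 fell without the 9 arrays, against 3.94%. LSM12 rose by 0.73 ± 0.15 (SE, adjusted p 0.000305 by limma), LSM11, of the U7 particle, by 0.21 ± 0.06 (0.00695), DDX23 by 0.44 ± 0.11 (0.00312) and PRPF8 by 0.65 ± 0.18 (0.0121). LSM2 fell by 0.62 ± 0.20 (0.0288), SNRNP27 by 0.42 ± 0.09 (0.00137) and PRPF4 by 0.20 ± 0.07 (0.0397). Without the 9 arrays LSM11, PRPF8, LSM2, SNRNP27 and PRPF4 did not pass (adjusted p between 0.0661 and 0.625). LSM12 and DDX23 still passed, with smaller changes of 0.32 (0.03745) and 0.26 (0.02275). LSM11 averaged 6.73 in control, near the array median of 6.62, which limits how its rise can be read. In B 2 rose and 0 fell, against 0.743% of all genes, and 4 rose and 1 fell without the 9 arrays, against 4.27%. In C and D 0 of 70 passed at 30 µg/mL, against 0.0649% and 0.015%. In C 2 rose without the 9 arrays, against 1.46%, and in D 0 of 70 still passed, against 0.434%.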

How the data were processed

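RNA of HepG2 cultures was read on Illumina HT-12 v4 arrays. The authors deposited 1 table of linear intensity values per probe, for which the series text names the R package beadarray 2.4.1 and R 2.14.0, with background and normalization steps not given in the sources used here. The deposited intensity values had the same median on all arrays (98.4), and log2 was taken with no further scaling. The brightest probe stood for each of 20046 genes, named through the platform's probe table, in which 30113 of 48107 probes had 1 symbol, 8 several and 17986 none. The column of 1 M array, whose title and dose label disagree, was left out, as the only per-sample column not used.

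With limma 3.58.1 in R 4.3.3, 1 fit over 25 groups gave changes, SEs and Benjamini-Hochberg adjusted p-values within each comparison (threshold 0.05). The probe-wise values come from the same fit over all probes. The code was tested on simulated data: for 20046 genes and the comparison of A at 30 µg/mL it recovered 90 of 100 genes changed by 0.5 and 100 of 100 changed by 1, with 6 false calls. Members and gene lists were chosen with earlier results of these data known. Named list genes were the 2 with the smallest p in each direction wherever 3 or more genes of a list passed; most similar profiles were the 5 (SNRPG) or 1 (others) highest correlations among genes above the median level. The replicate numbers were not taken to pair the arrays. For deviations from group means, the median correlation between arrays of different groups was 0.0128 with the same number and 0.0014 with another number. Same-number pairs of a 30 µg/mL array and a control ran between -0.44 and 0.476, and 15 of 40 were above 0.1. Other probe rules, filters, scalings, fits and omitted arrays were tried. No 2 arrays were identical (smallest root mean square difference 0.0942 on log2). Promoter windows that begin within the annotated gene, as for SNRPG and SNRPE, were not used.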

Additional observations from a re-analysis of the deposited data

Results flagged for a closer look

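In 18 of 225 sets of 1 member in 1 group, an array lay far from the others of its group by Dixon's criterion, which chance meets in about 1 in 20 sets. Of these, 5 were on the 9 arrays that stand apart. SNRPB read 13.36 in A at 30 µg/mL replicate 3, 13.16 in I at 0.3 µg/mL replicate 3, 13.14 in L at 0.3 µg/mL replicate 3 and 13.3 in L at 30 µg/mL replicate 1, while the other arrays of those groups did not exceed 12.21. SNRPC read 11.5 in A at 30 µg/mL replicate 3, above 10.45 to 10.72.

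The other 13 were on arrays that do not stand apart. SNRPG read 11.67 in control replicate 6, below 12.36 to 12.83, 12.7 in D at 30 µg/mL replicate 5, above 12.32 to 12.37, and 12.45 in I at 30 µg/mL replicate 1, below 12.67 to 12.71. SNRPD1 read 8.02 in D at 0.3 µg/mL replicate 1, 7.95 in L at 3 µg/mL replicate 5 and 7.62 in M at 3 µg/mL replicate 3. SNRPD3 read 7.38 in A at 3 µg/mL replicate 5. SNRPA read 8.19 in I at 3 µg/mL replicate 5, above 7.48 to 7.67, and SNRPC read 10.93 in D at 30 µg/mL replicate 5. SNRPE, at the array median throughout, read 6.88 in control replicate 2, 6.46 in D at 30 µg/mL replicate 1, 6.45 in L at 30 µg/mL replicate 4 and 6.4 in M at 3 µg/mL replicate 1.

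SNRPD1 differed among A, B, C, D, H and I at 30 µg/mL by limma's moderated F test (adjusted p 0.003037), with B highest of the 6. It was the only member that passed, while 25.1% of all genes passed the same test.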

How the results depend on the processing

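Counts of members called were recomputed under 10 alternatives besides the omission of single arrays, and no change of a called member turned its sign. A count within 1.5 times the reported one was taken as unchanged. Adjustment over all probes, with each member still read from its brightest probe, and a trended robust prior left the counts in that range. The trended robust prior ended the SNRPF call in H for 30 against 0.3 µg/mL (adjusted p 0.0705 by limma). Centring arrays on their medians could not change a count, as all arrays shared the median of 98.4. Quantile normalization left the counts in that range too, but identical values recur across the deposited arrays. An example is 6347.13 for SNRPG in control replicate 1 and in B at 0.3 µg/mL replicate 2. That scaling may thus have had little left to change. The dimmer probe of SNRPC enters none of these counts, and would add 1 call in H and 1 in M at 30 µg/mL. With the mean of all probes, H at 30 µg/mL had 1 call and the test across A, B, C, D, H and I had 2. SNRPF in M at 30 µg/mL then changed by 0.07 and no longer passed (adjusted p 0.572). With genes below the median level left out, L at 30 µg/mL had 2, all materials at 3 µg/mL had 3 and the test across 6 materials had 2. A separate fit for each comparison, with fewer arrays, gave 0 in L and 1 in M at 30 µg/mL, 0 for 30 against 0.3 µg/mL and 2 across the 6 materials, and the cause was not tested. With the replicate number as a block, all materials at 3 µg/mL had 3 calls, SNRPA in M at 3 µg/mL no longer passed (0.56, adjusted p 0.0538), and SNRPD3 in L at 30 µg/mL no longer passed, at -0.34 (adjusted p 0.131). With each 12 arrays deposited in succession taken as a block, L at 30 µg/mL had 2, all materials at 3 µg/mL had 2 and the test across 6 materials had 2. Without the 9 arrays, the counts were 6 at 3 µg/mL, 1 for 30 against 0.3 µg/mL and 2 across the 6 materials.

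Leaving out single arrays or replicate numbers gave 0 to 1 calls in A and in H, 0 to 2 in L and 3 to 4 in M at 30 µg/mL. It gave 0 to 3 calls at 3 µg/mL, 2 to 3 at 0.3 µg/mL, 0 to 4 for 30 against 0.3 µg/mL and 1 to 3 across the 6 materials. B, C, D, I and the contrast of oxides stayed at 0. SNRPE lies near the array background and limits what can be read from it.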
